A study of Mus musculus with 8 samples.

Results

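Blood vessels and mesenchyme of the growing lung receive secreted signals of the vascular endothelial growth factor (VEGF), angiopoietin and platelet-derived growth factor (PDGF) families, and 10 genes of these families were followed here. They are the ligand genes Vegfa, Vegfb, Vegfc, Pgf, Angpt1, Pdgfa, Pdgfb, Pdgfc and Pdgfd, and Pdgfra, which encodes the PDGF receptor alpha. Members were found by their symbol in the deposited tables. All 10 had exactly 1 record each, out of 24487 records in all. The members were chosen with earlier results of these data known, so shares of members called are descriptions only.

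VEGF-A is a main survival and growth signal for endothelium. It acts through the receptor encoded by Kdr, with the neuropilins Nrp1 and Nrp2 as co-receptors, and its gene is a textbook target of the oxygen-sensing HIF factors. VEGF-B and placental growth factor (Pgf) bind the receptor encoded by Flt1, VEGF-C drives lymphatic growth through Flt4, and angiopoietin 1 (Angpt1) stabilises vessels through Tek. In the lung, PDGF-A from the epithelium acts on mesenchymal cells that carry PDGFRA, among them the precursors of alveolar myofibroblasts. PDGF-B is best known as an endothelial signal that recruits pericytes through Pdgfrb, and PDGF-C and PDGF-D are secreted in a latent form that proteases activate.

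The libraries came from embryonic lung of C57BL/6 mice. Translating ribosome affinity purification (TRAP) pulls down ribosomes that carry a tagged protein in chosen cells, here through ribosomal protein L10 after labelling was induced with tamoxifen, in the Sox9 progenitors that the series title names. At embryonic days 14 and 17 (E14, E17) a single wild-type TRAP library stood beside a single library of wild-type whole lung homogenate. At E16, TRAP of 2 wild-type and 2 Sox9-mutant samples was compared, whose titles also carry E13 without saying what it stands for. The tamoxifen label stands on all 8 samples, the mutant ones and the homogenates included. The labels name neither the Sox9 allele, the driver of the tag, nor whether a sample is 1 embryo or a pool. The design text calls the E14 reference a supernatant, while its own label says whole lung homogenate. Levels are given in FPKM, fragments scaled by transcript length and library size, which allows genes of different length to be compared.

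Libraries rested on 9783768 (E14 TRAP) to 21500523 (E14 whole lung) fragments, inferred from the bounds of each value. All 10 epithelial markers were higher in TRAP than in whole lung at both stages. In contrast, all 10 endothelial and all 10 mesenchymal markers were lower, with medians at E14 of 12.5% and 12.0% of their whole lung level. No marker of these 3 lists was at 0 in any TRAP library. The TRAP libraries thus still held mRNA of vessel and mesenchyme marker genes, mostly at a low level. Which cells it came from was not tested. One short microRNA record, Mir762, made up 50.05% of the FPKM total of wild-type replicate 1 and 34.0% of that of E17 TRAP. In these 2 libraries, rescaling to a common total therefore depends heavily on this record. Another microRNA record, Mir5133, made up 11.5% of the total of mutant replicate 2. Results that such rescaling changes are named below.

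The 250 bases before the RefSeq transcription start (GRCm38.p6, 5′ to 3′ on the strand of the gene) are shown for Vegfb, Pdgfa, Vegfa and Pdgfc, the 4 members with the highest levels in wild-type TRAP at E16, so that the most abundant signals can be set side by side. RefSeq windows were matched for 8 of the 10 genes. Capitals mark the Sp1 box GGGCGG on either strand.
Vegfb, chr19:6987652-6987901, minus strand: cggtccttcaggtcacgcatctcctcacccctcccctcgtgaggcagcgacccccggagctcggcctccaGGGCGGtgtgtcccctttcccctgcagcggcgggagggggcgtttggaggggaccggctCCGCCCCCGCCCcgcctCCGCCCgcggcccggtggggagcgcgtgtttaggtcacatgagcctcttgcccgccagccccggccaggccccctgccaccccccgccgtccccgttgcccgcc
Pdgfa, chr5:138994945-138995194, minus strand: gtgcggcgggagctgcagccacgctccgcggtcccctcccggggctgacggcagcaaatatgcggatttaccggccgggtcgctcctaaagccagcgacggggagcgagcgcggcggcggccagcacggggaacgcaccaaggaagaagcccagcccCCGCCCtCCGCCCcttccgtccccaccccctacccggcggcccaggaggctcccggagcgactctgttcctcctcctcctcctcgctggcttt
Vegfa, chr17:46032378-46032627, minus strand: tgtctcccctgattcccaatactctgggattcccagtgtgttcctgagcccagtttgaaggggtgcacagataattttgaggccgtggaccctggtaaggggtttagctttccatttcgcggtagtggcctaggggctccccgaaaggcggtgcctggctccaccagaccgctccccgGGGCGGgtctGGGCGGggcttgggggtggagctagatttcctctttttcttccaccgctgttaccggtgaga
Pdgfc, chr3:81036166-81036415, plus strand: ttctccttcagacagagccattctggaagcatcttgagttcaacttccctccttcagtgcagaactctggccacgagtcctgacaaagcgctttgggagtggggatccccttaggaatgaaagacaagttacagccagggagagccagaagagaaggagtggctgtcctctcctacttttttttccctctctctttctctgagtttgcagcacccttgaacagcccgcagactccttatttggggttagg
The window of Vegfb held 4 Sp1 boxes and was 76.4% G and C. Those of Pdgfa (72.4% G and C) and Vegfa (59.2%) held 2 boxes each, and that of Pdgfc (50.8%) held none. At least 1 box lay in 32.7% of the 32851 RefSeq windows of this length. The core of the hypoxia response element, ACGTG, was in none of these 4 windows (16.6% of all windows), nor was ACAAT, the core of the SOX motif (27.7%). The ETS core GGAAG was found 2 times each for Pdgfa and Pdgfc and 1 time for Vegfa (64.1% of all windows held it). Both strands were read, and in these windows no match of one motif overlapped a match of another. The windows shown are those nearest to the edge of the deposited record. RefSeq gives Vegfa and Pdgfa a further start each, 7214 (Vegfa) and 672 (Pdgfa) bases inside the deposited record. Their windows held 1 ACGTG (Vegfa) and 1 ACAAT (Pdgfa). The Vegfa window thus lies within the gene, and gene-level values do not separate the starts. A match is a description of the sequence only.

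TRAP was set against whole lung to see which of these mRNAs are more abundant on the ribosomes of the labelled cells than in the organ. The PDGF ligands Pdgfa and Pdgfc were higher in TRAP at both stages, by 3.14-fold and 3.62-fold for Pdgfa and by 2.45-fold and 2.79-fold for Pdgfc (E14 and E17). Pdgfra, Angpt1 and Vegfc were lower. Vegfa and Pdgfb lay below whole lung at E14 and above it at E17. Of the 9 members past the filter on low values, 2 were higher, 3 were lower and 4 did not pass. Angpt1, 1 of the 3 lower, passed the filter only through whole lung. Of all 12320 records tested, 40.7% were called, 23.6% as higher and 17.1% as lower. The median log2 difference of the 9 was -0.01, against 0.05 over all records. Taken stage by stage with no test, Pdgfa and Pdgfc were at least 2-fold higher in FPKM + 1 at E14 and at E17, where 6.01% and 4.83% of records were. Vegfc, Pdgfra and Angpt1 were at least 2-fold lower at both, where 9.43% and 8.91% were. Each fraction has 1 library per stage, so the p-values of this fit rest on how far the stages disagree, with variances moderated over all records. In whole lung, fewer cells of a type and less RNA per cell cannot be told apart. TRAP holds ribosome-bound mRNA and the homogenate was not selected for ribosomes. Cell source and ribosome loading of an mRNA therefore cannot be told apart either.

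Pdgfa (chromosome 5, 138976972 to 138994953, mm10) stood at 74.8 FPKM in TRAP and 23.8 in whole lung at E14, then at 177 and 48.8 FPKM at E17. TRAP was above whole lung at both stages, and in E17 TRAP 587 of the 24487 records, Pdgfa included, reached this level or more. On the log2(FPKM + 1) scale the difference was 1.72 (SE 0.10, adjusted p = 0.000669), larger than that of 99.2% of the records tested. As a reference, the 10 epithelial markers had a median of 429% of whole lung at E14 (range 328% to 557%) and 259% at E17 (155% to 494%). Pdgfa stood at 314% and 362%. Of the markers, Epcam and Cdh1 stood at 4.35-fold and 3.52-fold above whole lung at E14 and at 2.65-fold and 2.24-fold at E17.

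Pdgfc (chromosome 3, 81036416 to 81214031) stood at 31.7 FPKM in TRAP and 12.9 in whole lung at E14, then at 21.2 and 7.60 at E17. Again TRAP was the higher fraction at both stages (log2 1.30, SE 0.11, adjusted p = 0.00141). Both calls were lost when the stage term was left out (adjusted p = 0.137 for Pdgfa and 0.0982 for Pdgfc). Pdgfd (chromosome 9, 6168612 to 6377519) was the lowest ligand, at 0.394 and 0.119 FPKM in TRAP and 0.813 and 1.23 in whole lung. It rested on between 4 and 44 fragments per library and did not pass the filter of a mean of 1 FPKM in any comparison.

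Pdgfb (chromosome 15, 79995876 to 80014808) did not separate the fractions (log2 0.11, SE 0.20, adjusted p = 0.671). Its E14 level was 13.7 FPKM in TRAP and 16.9 in whole lung, and its E17 level 43.8 and 30.5 FPKM. TRAP was thus at 81.1% of whole lung at E14 and at 144% at E17, while none of the 10 endothelial markers exceeded 62.0% at E14 or 43.0% at E17. The summed endothelial markers were 67.9 FPKM in E14 TRAP and 109 in E17 TRAP, against 332 and 616 in whole lung. Megakaryocytes and platelets are another source of PDGF-B. Their 5 markers summed to 7.89 and 12.7 FPKM in TRAP against 28.7 and 30.0 in whole lung, with none at 0 in these 4 libraries. Their part in the Pdgfb level was not tested.

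Summed over the 4 PDGF ligand genes, TRAP held 121 FPKM at E14 and 242 at E17, against 54.4 and 88.1 in whole lung. Pdgfa made up 62.0% and 73.1% of these sums in TRAP and 43.7% and 55.4% in whole lung. Pdgfb made up 11.3% and 18.1% in TRAP and 31.0% and 34.6% in whole lung. In both fractions and at both stages Pdgfa was the most abundant of the 4.

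The receptor gene Pdgfra (chromosome 5, 75152291 to 75198204) stood on the opposite side. It had 1.62 and 1.64 FPKM in TRAP at E14 and E17 against 19.6 and 20.3 in whole lung, so that TRAP held 8.28% and 8.07% of the whole lung level. The log2 difference was -2.99 (SE 0.14, adjusted p = 0.000445), which lay at percentile 0.495 of the records tested. The mesenchymal markers had a median of 12.0% of whole lung at E14 and 9.09% at E17. Pdgfrb, the receptor for PDGF-B, was likewise lower in TRAP (log2 -2.50), at 2.66 and 3.43 FPKM against 21.3 and 22.3.

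**Figure D1:**
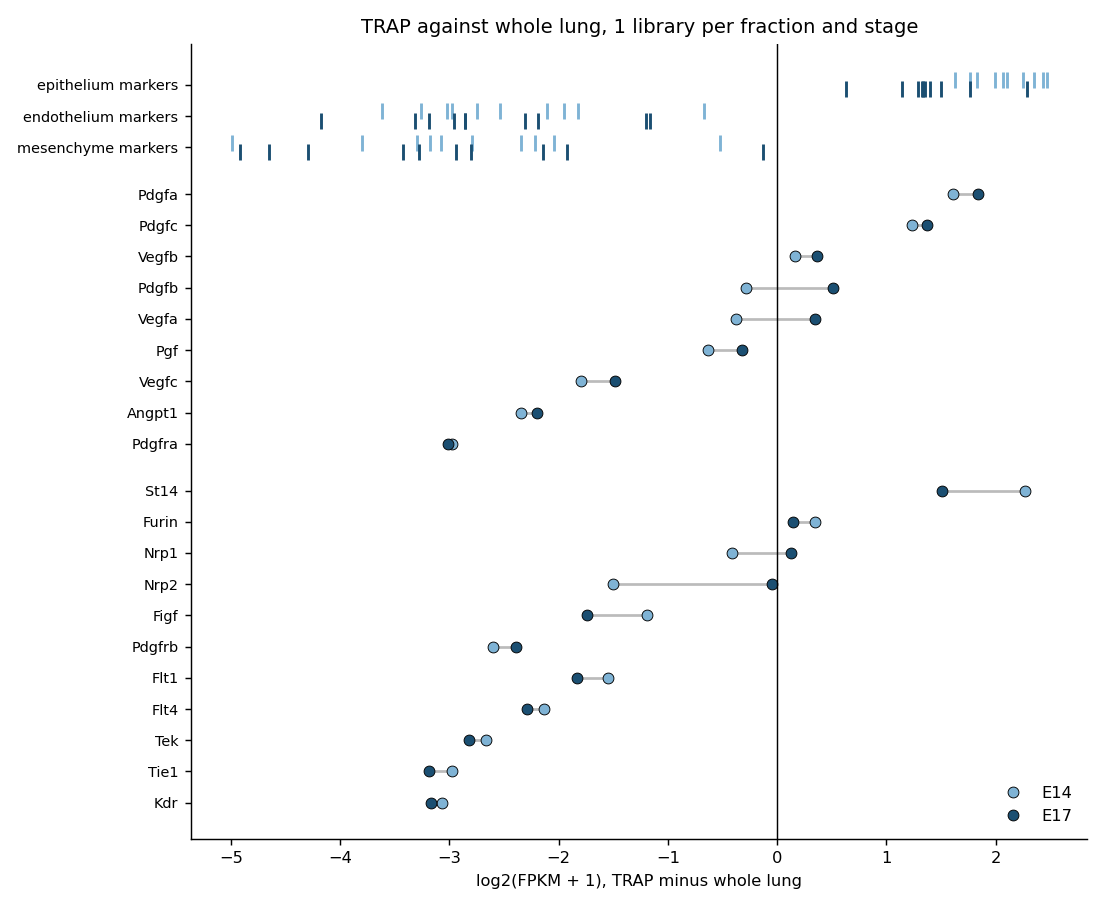
Difference of TRAP from whole lung on the log2(FPKM + 1) scale (x axis) at E14 (light) and E17 (dark), with 1 library per fraction and stage, for marker lists (ticks, 1 per gene), the signals past the filter (upper block of circles) and receptors, co-receptors and proteases (lower block). Pdgfa and Pdgfc lie to the right of 0, with every epithelial marker further right at E14, Pdgfra and Angpt1 among the mesenchymal ones to the left, and the lines of Vegfa and Pdgfb cross 0.

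Among the VEGF ligands, Vegfb (chromosome 19, 6982472 to 6987651) was the most abundant in each of the 8 libraries. At E14 it was read at 66.5 FPKM in TRAP and 59.2 in whole lung, and at E17 at 82.1 and 63.5, a difference that did not pass (log2 0.27, SE 0.10, adjusted p = 0.0863). Vegfa (chromosome 17, 46016993 to 46032377) was read at 20.9 FPKM in TRAP and 27.4 in whole lung at E14, and at 41.3 and 32.2 FPKM at E17. The order of the fractions turned between the stages, and the joint difference was -0.01 (SE 0.18, adjusted p = 0.956). Signs opposite at the 2 stages were found for 16.5% of all records tested.

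Vegfc (chromosome 8, 54077532 to 54186454), the lymphatic ligand, was lower in TRAP. It was read at 2.01 FPKM in TRAP and 9.43 in whole lung at E14, then at 3.35 and 11.2 FPKM (log2 -1.64, SE 0.16, adjusted p = 0.00179). Pgf (chromosome 12, 85166639 to 85177313) had 4.53 FPKM in TRAP and 7.60 in whole lung at E14 and 2.996 and 3.98 at E17, which did not pass (log2 -0.48, adjusted p = 0.0685). It passed after rescaling to a common total, with records under 200 bases in (adjusted p = 0.0102) or out (0.0429). Angpt1 (chromosome 15, 42424667 to 42676977) had 0.692 FPKM in TRAP and 7.58 in whole lung at E14 and 0.627 and 6.46 at E17 (log2 -2.27, SE 0.17, adjusted p = 0.00108). TRAP thus held 9.13% and 9.70% of its whole lung level, close to Pdgfra.

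The vascular receptors were low in TRAP. Of 11 further receptors, co-receptors and ligands of the VEGF and angiopoietin families, 9 passed the filter, 7 were lower and 2 did not pass (median log2 -1.82). Of all records tested, 17.1% were lower. Of the 7, Flt1, Flt4, Tek and Ptprb averaged under 1 FPKM in TRAP and passed the filter only through whole lung. Kdr had 0.739 and 1.28 FPKM in TRAP against 13.6 and 19.4 in whole lung (log2 -3.12). Tie1 (-3.08), Tek (-2.74), Flt4 (-2.22), Flt1 (-1.69) and Figf (-1.47), the older symbol of the VEGF-D gene, fell on the same side, as did the endothelial phosphatase gene Ptprb (-1.82), which the naming rule for lists does not cover. The call of Figf was lost without the stage term (adjusted p = 0.276). Tie1 is also 1 of the endothelial markers. The neuropilins did not pass. Nrp1 had 10.4 and 28.2 FPKM in TRAP against 14.1 and 25.8 in whole lung (log2 -0.14, adjusted p = 0.505), and Nrp2 had 2.16 and 6.996 against 7.97 and 7.25 (log2 -0.77, adjusted p = 0.126).

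Proteases that activate PDGF and VEGF precursors divided. Of the 7 genes in this list, Pdgfrb included, 1 was higher in TRAP, 5 were lower and 1 did not pass. The shares over all records were 23.6% higher and 17.1% lower. St14, which encodes the epithelial membrane protease matriptase, was higher (64.8 and 66.3 FPKM against 12.6 and 22.6, log2 1.89). Plat, whose product tPA activates PDGF-C, was lower (3.72 and 2.22 against 11.01 and 4.45, log2 -1.05), as were Plau (-1.21), Pcsk5 (-1.11) and the receptor-like gene Pdgfrl (-1.47). Plau and Pdgfrl passed the filter only through whole lung. The 4 last-named calls were lost without the stage term, with adjusted p from 0.0567 to 0.223. Furin, a convertase of several growth factor precursors, did not pass (0.25, adjusted p = 0.110). Of the VEGF-C processing genes, Ccbe1 was lower (-1.96; lost without the stage term) and Adamts3 did not pass (-0.67), both past the filter only through whole lung, while Adamts14 was under the filter.

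A list of 9 myofibroblast and mesenchymal genes was lower in TRAP throughout (9 of 9, median log2 -2.04), beside 17.1% of all records. It holds, beside smooth muscle genes, the Hedgehog target Gli1 and the mesenchymal ligand gene Fgf10. Tgfbi (-2.04), Fgf10 (-2.05), Gli1 (-1.95), Tagln (-2.33), Plin2 (-1.20) and Acta2 (-2.82) had the smallest p-values, and the calls of Plin2 and Acta2 were lost without the stage term. Acta2 and Tagln also stand in the marker list of smooth muscle and pericytes. Of 9 oxygen-sensing genes, Epas1, which encodes HIF-2 alpha, was lower (1.84 and 6.99 FPKM against 5.65 and 20.8, log2 -1.34), as was Arnt (-0.49), and 7 did not pass. Both calls were lost without the stage term, and that of Arnt by limma-voom (-0.33). Hif1a itself had 26.4 and 26.98 FPKM in TRAP against 27.7 and 21.01 in whole lung (log2 0.14, adjusted p = 0.434).

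**Figure D2:**
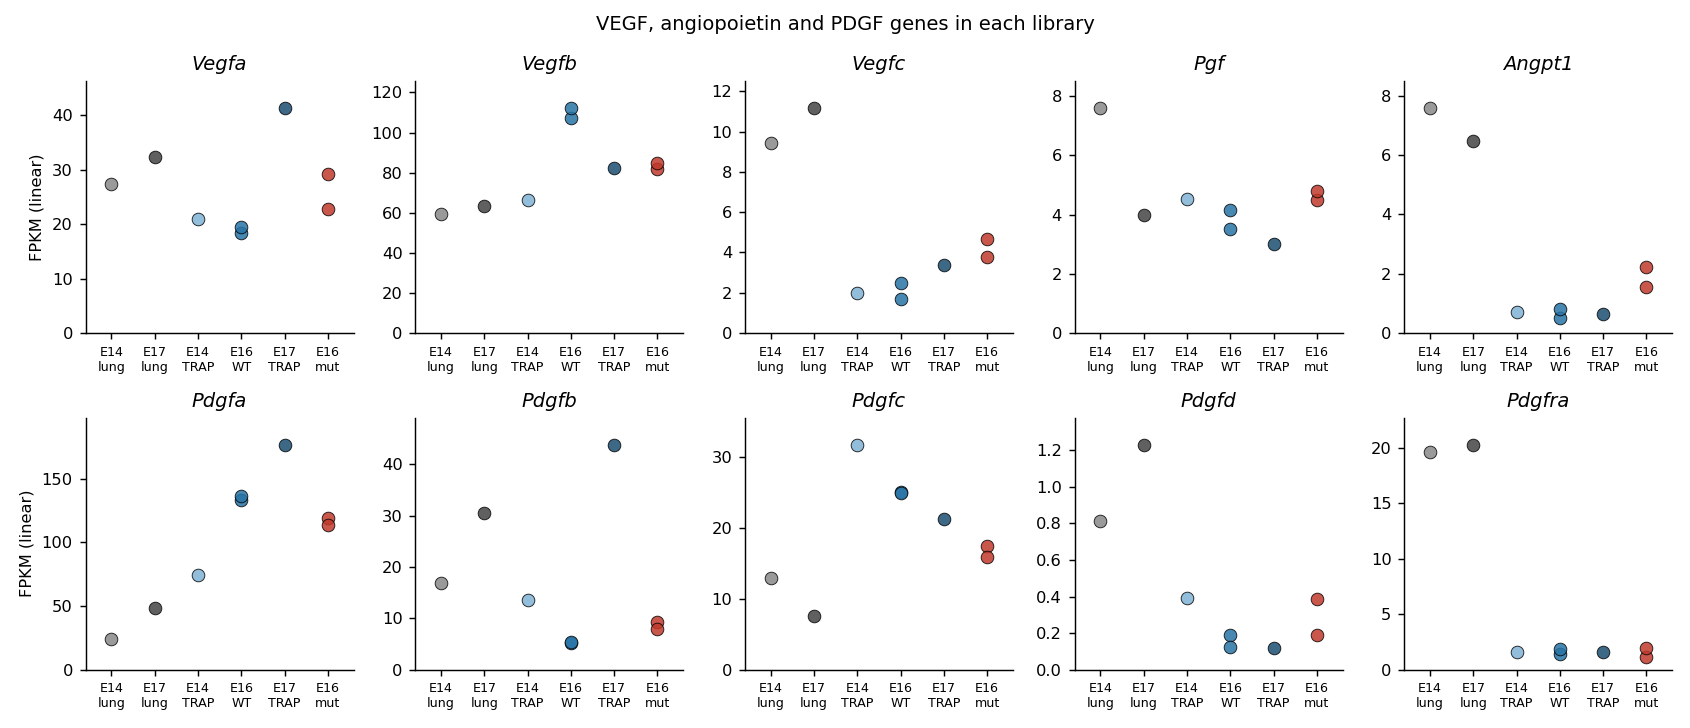
Level of each gene in FPKM (linear y axis from 0, its own range per panel) in whole lung (grey), wild-type TRAP (blue) and Sox9-mutant TRAP (red); each point is 1 library. Pdgfa and Pdgfc stand higher in TRAP than in whole lung, whereas Vegfc, Angpt1 and Pdgfra stand lower in every TRAP library.

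The stage comparison asked how the signals differ between E14 and E17. Pdgfa and Pdgfb rose and Pdgfc fell from E14 to E17, in TRAP and in whole lung alike. With 3 of 9 members called, the other 6 did not pass; of all records 15.9% were called, 9.51% as higher and 6.36% as lower. The fit takes both fractions together, and its p-values rest on how far the fractions disagree. The 3 calls were lost with no filter on low values, with adjusted p from 0.0644 to 0.0921, and with no term for the fraction.

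Pdgfa was 2.36-fold higher at E17 than at E14 in TRAP and 2.05-fold in whole lung (log2 1.118, SE 0.10, adjusted p = 0.00640), and the call was lost when libraries were rescaled to a common total (log2 0.84, adjusted p = 0.177). The 10 epithelial markers summed to 2601 FPKM in TRAP and 563 in whole lung at E14 and to 2789 and 990.3 at E17, with 3 called higher, none lower and 9 of positive sign. Their part in the Pdgfa difference was not tested. Pdgfb was 3.21-fold higher in TRAP and 1.81-fold in whole lung (log2 1.21, SE 0.20, adjusted p = 0.0234). Of the 10 endothelial markers, 9 passed as higher at E17 in the same fit, as did 9.51% of all records. Their sum went from 67.9 to 109 FPKM in TRAP and from 332 to 616 in whole lung. The part of these markers in the Pdgfb difference was not tested. Pdgfc had E17-to-E14 ratios of 0.670 in TRAP and 0.588 in whole lung (log2 -0.63, SE 0.11, adjusted p = 0.0281). By the rule of at least 2-fold in FPKM + 1 with no test, Pdgfa and Pdgfb were higher in TRAP, where 4.55% of records were, and Pdgfa alone in whole lung, where 4.67% were. No member past the filter was 2-fold lower, as were 1.82% of records in TRAP and 1.23% in whole lung.

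Vegfa was 1.98-fold higher at E17 in TRAP and 1.17-fold in whole lung, which did not pass in the joint fit (log2 0.59, SE 0.18, adjusted p = 0.0861). Pgf had ratios of 0.661 in TRAP and 0.524 in whole lung (log2 -0.63, adjusted p = 0.0592). It passed as lower after rescaling to a common total with short records in (adjusted p = 0.0145) or out (0.0312). Vegfb (log2 0.20), Vegfc (0.38), Angpt1 (-0.13) and Pdgfra (0.03) had adjusted p of 0.162 or more, and the sign of Vegfb (-0.074) and of Pdgfra (-0.15) turned after rescaling to a common total. Pdgfra had 19.6 and 20.3 FPKM in whole lung at the 2 stages, a change of 1.03-fold.

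Several partners rose between the stages. Figf went from 11.7 to 42.4 FPKM in whole lung and from 4.54 to 11.98 in TRAP (log2 1.501), Nrp1 from 14.1 to 25.8 and from 10.4 to 28.2 (1.09), and Tie1 from 28.7 to 53.3 and from 2.77 to 4.96 (0.76). These were the 3 of 9 tested in that list that passed, all higher. Of all records, 9.51% were called higher and 6.36% lower. Of the 7 PDGF receptor partners and proteases, Furin was higher (0.50), Plat was lower (-0.84) and 5 did not pass. Oxygen-sensing genes that rose were Epas1 (1.601), Hif3a (1.603), Egln3 (1.55), a prolyl hydroxylase gene that HIF itself induces, and Egln1 (0.42), 4 of 9 with none lower. Fgf18 (1.51), Wnt5a (0.99), Plin2 (0.65) and Tgfbi (0.48) rose in the myofibroblast and mesenchymal list, and 5 of its 9 did not pass. All calls named in the lists between stages were lost with no filter and with no fraction term, and that of Egln1 in every alternative run. Rescaling to a common total ended those of Nrp1, Tie1, Furin, Tgfbi and Plin2, limma-voom those of Furin and Tgfbi, a filter of 5 FPKM that of Plat, and centring on the median that of Plin2.

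The E16 wild-type TRAP libraries gave a further time point for the labelled cells. Pdgfa had 133 and 136 FPKM there, between the 74.8 of E14 and the 177 of E17, and Pdgfc had 25.05 and 24.97, between 31.7 and 21.2. Pdgfb, in contrast, had 5.30 and 5.36 FPKM, below both the 13.7 of E14 and the 43.8 of E17. Vegfa, with 18.4 and 19.4, also lay below both flanking stages, while Vegfb, with 107 and 112, lay above both. Such positions were common, since both E16 libraries lay below the flanking TRAP libraries for 30.0% of records and above them for 23.5%. The summed endothelial markers were 70.8 and 87.6 FPKM in these 2 libraries, above the 67.9 of E14 TRAP and below the 109 of E17 TRAP. Egfl7 alone gave 43.7 and 46.3 FPKM of the E16 sums, 34.4 at E14 and 48.9 at E17. Without Egfl7, wild-type replicate 1 lay below E14 TRAP and replicate 2 above it. Stage and experiment cannot be told apart here, because the E16 libraries carry other titles than the E14 and E17 ones.

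**Figure D3:**
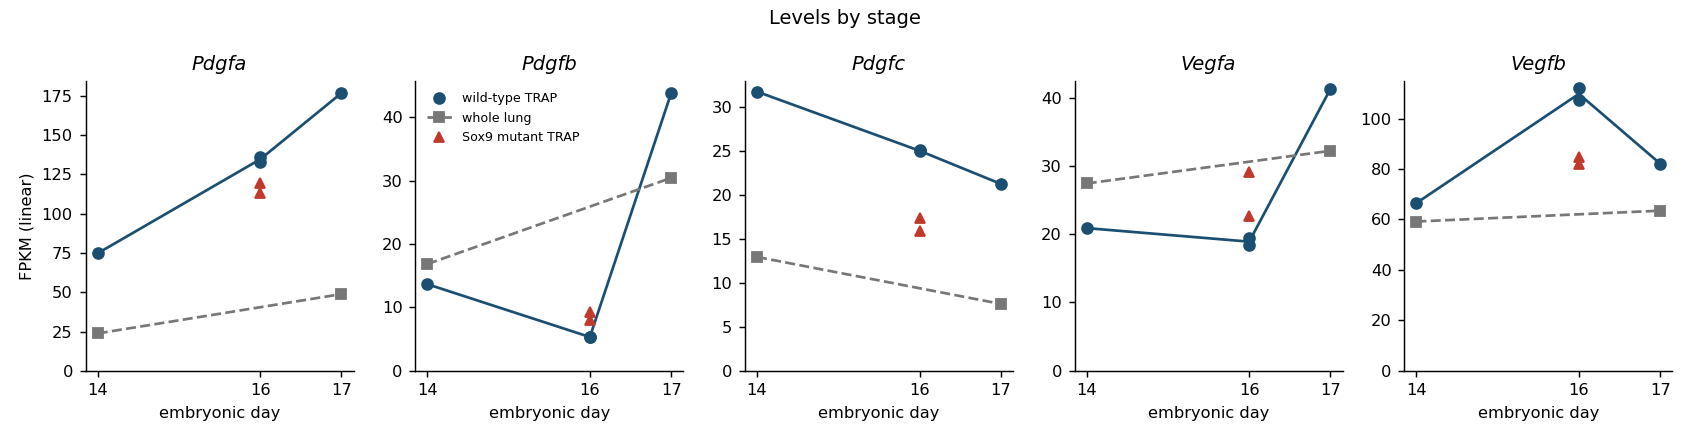
Levels in FPKM (linear y axis from 0) by embryonic day for 5 ligand genes, with wild-type TRAP in blue (line through the mean of the 2 libraries at E16), whole lung in grey and Sox9-mutant TRAP at E16 as red triangles; each symbol is 1 library. Pdgfa climbs and Pdgfc declines in steps, whereas Pdgfb is lowest at E16.

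The E16 comparison asked which signals differ in the labelled cells when Sox9 is mutated. Vegfc, Pdgfb and Vegfa were higher in the mutant, and Pdgfc, Vegfb and Pdgfa were lower. Angpt1 was also called higher, but passed the filter only through the mutant libraries, and without mutant replicate 1 it dropped below the filter, which left 8 members tested and 2 higher. With 7 of 9 members called, of which 4 were higher and 3 lower, the share stood beside 31.6% of all 11872 records tested (17.4% higher, 14.3% lower). The median log2 difference of the 9, Angpt1 included, was 0.23, against 0.01 over all records. The mutant libraries lay both above or both below the 2 wild-type ones for 8 of the 9, as they did for 70.1% of all records tested. The labels do not tie the replicates to separate animals, and the p-values reflect only how far these libraries spread. Rescaling to a common total ended all 7 calls, with those of every pathway gene named below, and turned the sign of Vegfb (log2 0.06), Pdgfa (0.25) and Egln1 (0.26). With records under 200 bases left out of that rescaling, 4 members were higher and 2 lower, with Pdgfa as the call lost.

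Pdgfc had the largest decrease among the members called. Its wild-type libraries stood at 25.05 and 24.97 FPKM and its mutant ones at 17.4 and 15.9, which put both mutant libraries below both wild-type ones. The means were 25.01 ± 0.0537 and 16.7 ± 1.04 FPKM (SD, n = 2 each; log2 -0.56, SE 0.06, limma adjusted p = 0.00190). Pdgfa, at 133 and 136 FPKM in wild-type and 119 and 113 in mutant libraries, did not overlap either. Its decrease was the smallest among the calls (log2 -0.21, SE 0.05, adjusted p = 0.0247), and it was lost without wild-type replicate 1 (log2 -0.23) or replicate 2 (-0.19), without mutant replicate 2 (-0.17), by limma-voom (-0.18), and after rescaling to a common total without records under 200 bases (-0.14, adjusted p = 0.0847). Pdgfa still made up 81.5% and 82.4% of the summed PDGF ligands in mutant libraries, beside 81.3% and 81.7% in wild-type ones.

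Pdgfb went the other way, at 5.30 and 5.36 FPKM in wild-type and 9.32 and 8.03 in mutant libraries (means 5.33 ± 0.0394 and 8.67 ± 0.911, SD, n = 2 each). Both mutant values were higher (log2 0.61, SE 0.09, adjusted p = 0.00471), and the call held without each library in turn, though not after rescaling to a common total. The endothelial markers were read beside it. Of the 8 tested, 2 were lower, 6 did not pass and none was higher, and the whole list of 10 summed to 70.8 and 87.6 FPKM in wild-type and 59.01 and 46.01 in mutant libraries. Egfl7 alone, 1 of the 2 lower, gave 43.7 and 46.3 FPKM of the wild-type sums and 30.9 and 26.8 of the mutant ones. Without Egfl7 the sums of the 2 groups overlapped. The megakaryocyte markers summed to 2.07 and 2.65 FPKM and to 2.50 and 1.47. Of the 10 epithelial markers 8 were higher, Nkx2-1 was lower and Epcam did not pass (median log2 0.41). Of all records tested, 17.4% were higher and 14.3% lower. The epithelial sums were 2295 and 2277 FPKM in wild-type and 3084 and 2973 in mutant libraries. Krt19 alone gave 111 and 117 FPKM of the wild-type sums and 403 and 399.6 of the mutant ones. Epcam had 308 and 290 FPKM against 293 and 284. The part of the epithelial markers in the higher Pdgfb and Vegfa was not tested. Pdgfd, under the filter, had 0.188 and 0.122 FPKM against 0.385 and 0.188.

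The receptor gene Pdgfra was low in all 4 libraries and overlapped between the groups, at 1.43 and 1.88 FPKM in wild-type and 1.10 and 1.98 in mutant libraries (log2 -0.08, SE 0.19, adjusted p = 0.782). The sign turned without wild-type replicate 2 (0.04) or mutant replicate 1 (0.17). Pdgfrb did not pass either (log2 -0.11, adjusted p = 0.626).

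Among the VEGF genes, Vegfb fell from 107 and 112 FPKM in the wild type to 81.97 and 84.8 in the mutant, with no overlap (means 109.8 ± 3.46 and 83.4 ± 1.98, SD, n = 2 each; log2 -0.39, SE 0.05, adjusted p = 0.00285). Vegfa rose from 18.4 and 19.4 to 29.2 and 22.7 FPKM (log2 0.43, SE 0.12, adjusted p = 0.0400). The mutant replicates of Vegfa differed more from each other than the wild-type ones, and the call did not hold without mutant replicate 1 (log2 0.25), without wild-type replicate 1 (0.39) or 2 (0.47), with no filter, or with centring on the median (0.38). Of the sum of Vegfa, Vegfb, Vegfc and Pgf, with Figf left out, Vegfa was 14.04% and 14.06% in the wild type and 24.4% and 19.4% in the mutant.

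Vegfc was read at 1.71 and 2.49 FPKM in wild-type and at 3.78 and 4.66 in mutant libraries, with no overlap and a ratio of means of 2.01 (log2 0.76, SE 0.15, adjusted p = 0.0157). Pgf had 3.52 and 4.15 FPKM against 4.504 and 4.799, with no overlap, and did not pass (log2 0.23, SE 0.10, adjusted p = 0.129). Angpt1 was read at 0.503 and 0.811 FPKM in wild-type and at 2.22 and 1.56 in mutant libraries, again with no overlap. The ratio of means was 2.88 (log2 0.80, SE 0.16, adjusted p = 0.0162), and across the alternatives the log2 difference ran from 0.67 to 1.58. It rested on 45 and 79 fragments in the wild type and 238 and 141 in the mutant. Without wild-type replicate 1 the calls of Vegfc (log2 0.58) and Angpt1 (0.67) were lost, and that of Vegfc also with no filter.

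Most mesenchymal markers were not called beside Angpt1. Of 10 mesenchymal markers, 1 was higher, 1 lower and 8 did not pass, with sums of 109 and 148 FPKM in wild-type and 72.5 and 137 in mutant libraries. Smooth muscle and pericyte markers had 6 tested and 0 called by limma (0 at an unadjusted p under 0.05), with sums of 52.3 and 80.1 against 40.8 and 61.8 FPKM. The 5 mesothelial markers summed to 7.47 and 10.03 FPKM in wild-type libraries and to 17.3 and 17.5 in mutant ones, a difference that Msln carried. Without Msln the other 4 summed to 6.62 and 9.34 FPKM and to 4.27 and 6.29. Msln was called (log2 2.89) and passed the filter only through the mutant libraries, while Upk3b (0.10) and Nkain4 (-0.64) did not pass and Wt1 and Lrrn4 were under the filter. The part of any of these lists in the higher Angpt1 was not tested.

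**Figure D4:**
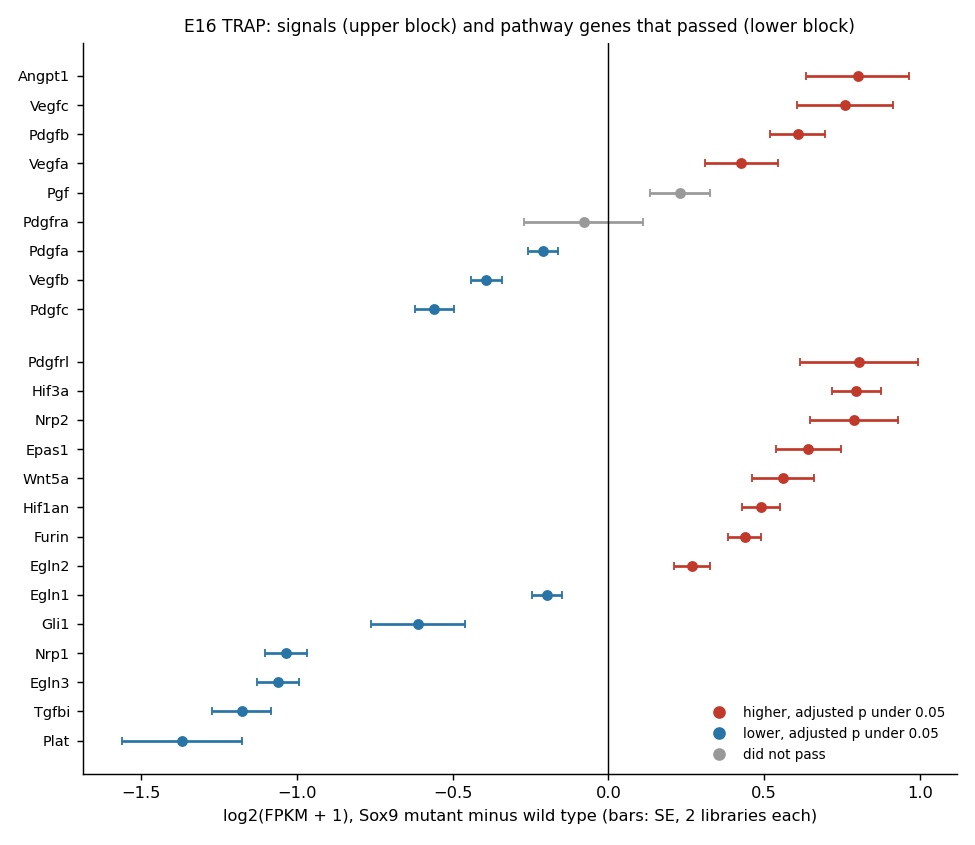
Difference of the Sox9 mutant from the wild type in E16 TRAP on the log2(FPKM + 1) scale (x axis; points are limma estimates, bars 1 SE, 2 libraries per group) for the 9 signals past the filter and for the pathway genes that passed. Angpt1, Vegfc, Pdgfb and Vegfa lie to the right and Pdgfa, Vegfb and Pdgfc to the left, while Pgf and Pdgfra, in grey, did not pass.

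The co-receptors moved in opposite directions. Nrp1 fell from 11.01 and 11.5 FPKM to 4.99 and 4.97 (log2 -1.04, SE 0.07, adjusted p = 0.000297), and Nrp2 rose from 3.09 and 2.35 to 6.03 and 4.80 (log2 0.79, SE 0.14, adjusted p = 0.0101). Without wild-type replicate 2 the Nrp2 call was lost (0.64). Tie1 and Figf did not pass, and the other 7 genes of that list, Kdr, Tek, Flt1 and Flt4 among them, were under the filter. Of the proteases and PDGF receptor partners, 3 of 6 did not pass. Plat, past the filter only through the wild type, fell from 3.08 and 4.01 to 0.482 and 1.07 FPKM (log2 -1.37, SE 0.19, adjusted p = 0.00427). Furin rose (0.44, lost by limma-voom at 0.10), as did Pdgfrl (0.80, lost without either wild-type library and with no filter). Of all records tested, 31.6% were called.

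Oxygen-sensing genes split, with 4 of 9 higher, 2 lower and 3 not passing, beside 31.6% of all records called. Epas1, 1 of the 4, averaged 0.856 FPKM in the wild type and passed the filter only through the mutant libraries. Hif3a (log2 0.80), Epas1 (0.64), Hif1an (0.49) and Egln2 (0.27) rose, and Egln3 fell from 12.1 and 12.4 to 5.20 and 5.50 FPKM (-1.06), as did Egln1 (-0.20). Hif1a did not pass (-0.16, adjusted p = 0.122). In the myofibroblast and mesenchymal list Tgfbi (-1.18) and Gli1 (-0.61) fell, Wnt5a rose (0.56) and 6 of 9 did not pass, a share called close to the 31.6% of all records. Without wild-type replicate 2 the calls of Epas1 (0.60), Egln2 (0.22), Gli1 (-0.45) and Egln1 (-0.19) were lost, and without replicate 1 those of Wnt5a (0.48) and Egln1 (-0.20). Gli1 was also lost without mutant replicate 1 (-0.49) and with no filter, and Egln1 without mutant replicate 2 (-0.17) and after rescaling without short records (-0.13).

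Other genes followed the pattern of single members over the 8 libraries. By Pearson correlation of log2(FPKM + 1) among 8489 records, those nearest to Pdgfra were Ppm1f, Akap12, Adam19 and the basement membrane gene Nid2 (r from 0.996 to 0.997). For Pdgfa they were the mitochondrial ribosomal protein gene Mrpl14, Pla2g6, Sdr39u1 and Map2k3 (0.991 to 0.992), and for Vegfa they were Eml3, the cohesin gene Stag2, Arhgef11 and Stx5a (0.947 to 0.965). The libraries share fraction and stage, and the correlations are given as a description with no test.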

How the data were processed

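The authors deposited 1 table per library with the FPKM of each record and its lower and upper bounds, per the file headers. TopHat2 2.0.14, Bowtie2 2.2.3, Cufflinks 2.2.1 and Cuffnorm are named with the build mm10 in the submitters' processing notes; the sources used here do not give how library totals were set. Values were used as deposited. Starts had 1 added. A bound was read as 2 standard errors from the value, and fragments as the square of value over standard error. For Pdgfra, fragments per FPKM varied by 1.10 on the log2 scale between libraries after a library factor (at most 0.38 for the other members), so its fragment numbers are less certain.

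Differences in log2(FPKM + 1), a scale that understates changes of low genes, were tested with limma 3.58.1 (R 4.3.3). Records averaging 1 FPKM or more over the libraries of the fit entered. Variances were moderated with a trend on level, p-values were two-sided, and the Benjamini-Hochberg threshold over all records was 0.05. The E16 fit had 2 residual degrees of freedom beside 3.73 prior ones, which the moderation over all records adds. The fit of E14 and E17, with fraction and stage as additive terms, had 1 residual beside 4.47 prior ones. The steps were also run on simulated data with known changes. These had a fixed spread and no difference in composition between libraries, so they cannot test the effect of rescaling or the real replicate spread. Each library counted as 1 sample. The mean squared difference between replicates was 4.84 for wild-type and 6.94 for mutant libraries, in units of counting error (medians 1.18 and 1.57). Such a spread cannot show whether the replicates are separate animals.

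The members and lists were chosen with earlier results of these data known. All members are named. Of 5 pathway lists, the genes that passed were named, up to 6 per list with the smallest p, besides genes of interest that did not pass; Ptprb, Epcam and Cdh1 were chosen after their values were seen. For Vegfa, Pdgfa and Pdgfra the 4 records of highest correlation were named among those with a mean of at least 5 FPKM and 200 bases, leaving out predicted genes and pseudogenes. Promoter windows came from RefSeq. Alternatives were another pseudocount (0.1), no filter or one of 5 FPKM, 3 scalings, limma-voom on inferred fragments, the replicate number as a block, other model terms and leaving out libraries.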

Additional observations from a re-analysis of the deposited data

Results flagged for a closer look

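Vegfa differed from whole lung in opposite directions at the 2 stages, by -0.38 on the log2(FPKM + 1) scale at E14 and by 0.35 at E17. Pdgfb did the same, by -0.28 at E14 and 0.51 at E17. With 1 library per fraction and stage, the difference between the stages was not tested. At each stage the deposited bounds of the fractions did not overlap for either gene, but these bounds cover counting error only. The turn held when libraries were centred on their medians and after rescaling by totals that exclude records shorter than 200 bases (Vegfa -0.50 and 0.29, Pdgfb -0.41 and 0.45). After rescaling to a common total with all records, E17 TRAP, whose total holds the large Mir762 value, fell below whole lung as well (Vegfa -0.25, Pdgfb -0.09).

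Pdgfd moved in opposite directions between E14 and E17, by -0.32 in TRAP and by 0.30 in whole lung. It rested on 8 and 4 fragments in TRAP, and the difference was not tested.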

How the results depend on the processing

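In the mutant comparison 2063 records were higher and 1692 lower. Rescaling to a common total gave 167 and 58 and 0 members in either direction (2 higher and 0 lower at an unadjusted p under 0.05; limma-voom called 4 and 2), with the median of all records at 0.41, and leaving out 1 library gave from 1166 to 1716 higher and from 722 to 1720 lower. The higher share of calls was 54.9%, 74.2% after rescaling to a common total, 68.3% without short records and 42.8% with centring. Members called higher were 4, or 2 with no filter, 2 with a filter of 5 FPKM, and from 1 to 4 without 1 library; members lower were 3, or from 2 to 3. The sign turned after rescaling to a common total for Vegfb (0.063), Pdgfa (0.25), Pdgfra (0.16) and Egln1 (0.26). Leaving out 1 library moved Pdgfra from -0.33 to 0.17. The replicate number as a block left 1929 records higher and 1574 lower and changed none of the 23 calls or non-calls of named genes. The numbers did not pair the samples (correlation of replicate differences 0.01 over 11872 records).

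For TRAP against whole lung, 2910 records were higher and 2105 lower. Rescaling gave 547 higher, limma-voom 1782 higher, a filter of 5 FPKM 1267 lower, and no stage term 159 and 415 with 0 members higher (2 at an unadjusted p under 0.05). The higher share of calls, 58.0%, was 16.04% after rescaling to a common total (median of all records -0.29), 43.2% by limma-voom and 27.7% with no stage term. The sign turned for Vegfa with centring (0.031), for Vegfb (-0.12) and Pdgfb (-0.26) after rescaling, and for Pdgfb by limma-voom (-0.016).

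Between stages, 1172 records were higher and 783 lower. With no filter 49 and 3 were called, with 0 members in either direction (3 higher and 2 lower at an unadjusted p under 0.05). With no fraction term limma called 0 records and 0 members, where 455 and 229 records and 1 and 0 members had an unadjusted p under 0.05. Rescaling gave 517 higher (median of all records -0.23), 1 member higher and 2 lower; with short records out 1539 were lower, and 2 members. The higher share of calls, 59.9%, was 46.0% after rescaling and 45.1% with short records out. The sign turned for Vegfb (-0.074) and Pdgfra (-0.15) after rescaling, and for Pdgfra with short records out (-0.038) and with centring (-0.0065). The cause of these changes was not tested. Depth limited Pdgfd and Angpt1 most, with as few as 4 and 33 fragments in a library.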
